A study of Corbicula fluminea with 24 samples.

Results

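The transcripts described here are those named BIRC7 in the digestive gland of Corbicula fluminea, the Asian clam, which lives in fresh water and feeds by filtration. They were taken by name from the deposited table, as every row called BIRC7 with 1 of 9 numbered endings (BIRC7.1.9 to BIRC7.9.9). This gave 9 contigs (assembled transcript pieces) of 58291, and all 9 passed the filter on low counts that left 57593 contigs for testing. In a further 7 contigs the name is a variant (birc7.1.2, birc7.2.2, BIR7A and BIR7B.1.4 to BIR7B.4.4), and these are described separately.

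BIRC7, also called livin, belongs to the inhibitors of apoptosis (IAPs), proteins defined by a zinc-binding BIR domain. In humans BIRC7 carries a RING domain as well, which passes ubiquitin to target proteins. It can bind caspases, the proteases that carry out apoptosis, and the mitochondrial protein Smac/DIABLO, which releases caspases from IAPs. IAP genes are present in many copies in bivalves, and the bivalve digestive gland renews its digestive cells and takes up and handles foreign compounds. The clam table pairs no sequence, length, source species or description with the contig names. The contigs may therefore be several genes or pieces of the same gene, reads may be split between them, and the value of any single contig is uncertain to that extent. Levels are given in CPM (counts divided by the TMM-scaled library size in M) and are compared between clams for a given contig, not between contigs.

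Clams were caged over a winter at 3 places: below the outlet of a wastewater treatment plant (WWTP), below an outfall of urban runoff, and at a reference site. RNA of the digestive gland was sequenced in 8 clams per site, with 1 library per clam and 4 libraries of each site on each of lanes 3 and 4. The labels give no genotype, age, sex or chemical exposure, and all groups share the caging. Each site was caged once, so a site difference cannot be told apart from a cage difference, and p-values measure the spread between clams.

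Library totals ran from 40.4 to 97.7 M counts, and every BIRC7 contig had at least 19 counts in each library. A contig with 0 counts in a library could still have had 3 counts, which is 0.0323 to 0.0792 CPM. Markers of the digestive gland were present in the 24 libraries, but most at very unequal levels: GUN, an endoglucanase that breaks down cellulose, spanned 2.74 to 1077 CPM. Among the digestive markers CATL varied least in relative terms, at 7.94 to 15.7 CPM. Of 10 digestive marker contigs, 1 (LYS3.2.4, a lysozyme) was at 0 in 1 library. Summed muscle markers spanned 295.2 to 13536 CPM and summed vitellogenins, the egg yolk precursors, 133 to 15786 CPM. The only contig on the list of ciliary markers, DYHC, spanned 0.826 to 2.86 CPM. It is named for a dynein and was listed by its name alone, so its ciliary origin is not known. The sums of the 10 digestive markers ran from 536.3 to 4594 CPM in WWTP, 267.3 to 3102 CPM in runoff and 345.6 to 3168 CPM in reference clams. In bulk tissue, fewer cells of a type and less RNA per cell cannot be told apart.

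All 9 BIRC7 contigs were expressed in each of the 24 clams, and for each contig the ranges at the 3 sites overlapped. The 9 levels summed to 35.6 ± 8.35 CPM in WWTP clams, 42.0 ± 8.17 CPM in runoff clams and 35.9 ± 8.10 CPM in reference clams (SD, n = 8 each). The sums of single clams ran from 21.0 to 47.5 CPM, 32.2 to 56.3 CPM and 25.4 to 47.6 CPM in the same order of sites, so the sites overlapped. Mean levels were highest in runoff clams for 8 of the 9 contigs and in WWTP clams for 1 (BIRC7.1.9), although no site difference of a BIRC7 contig passed the test given below.

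**Figure D1:**
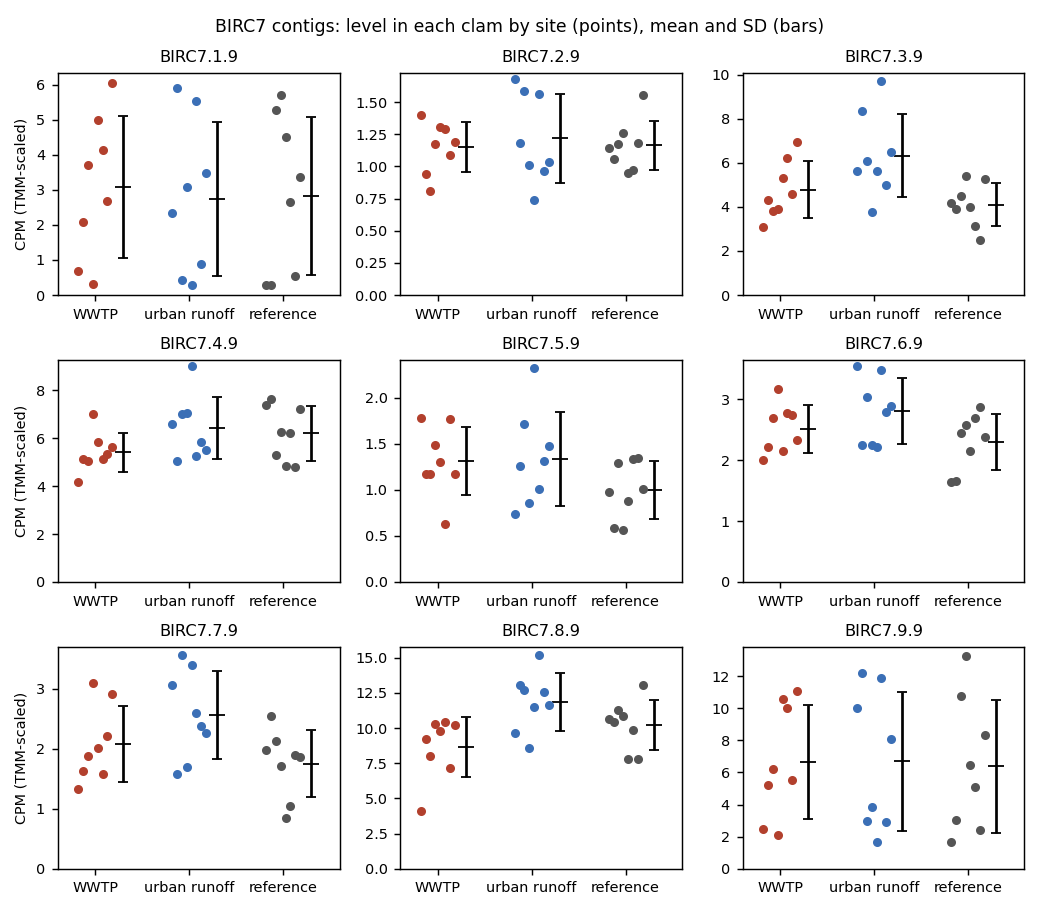
Level of each BIRC7 contig in every clam (CPM, linear axes from 0; points are clams, bars the mean and SD of 8 clams) at the WWTP, urban runoff and reference sites. The sites overlap in all 9 panels, and the runoff clams reach the highest values of BIRC7.3.9 (9.70 CPM) and BIRC7.8.9 (15.2 CPM).

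BIRC7.3.9 had the largest difference between runoff and reference clams in standard errors. Its level was lowest at 3.78, had a median of 5.85 and was highest at 9.70 CPM in runoff clams, against 2.48, 4.07 and 5.40 CPM in reference clams. In runoff clams 7 of 8 lay above the reference median and 6 lay above every reference clam. Means were 6.33 ± 1.88 CPM in runoff and 4.10 ± 0.986 CPM in reference clams (SD, n = 8 each), a ratio of 1.54 (95% interval 1.17 to 2.03). This difference did not pass the threshold of 0.05 over all contigs (log2 fold change 0.63, SE 0.192; quasi-likelihood test of edgeR, Benjamini-Hochberg adjusted p = 0.184, unadjusted p = 0.00328). WWTP clams held an intermediate position, with a lowest value of 3.09, a median of 4.47 and a highest value of 6.92 CPM. Their log2 fold change over reference was 0.22 (SE 0.191, edgeR adjusted p = 0.685) and over runoff clams -0.41 (SE 0.191, edgeR adjusted p = 0.351), and neither neighbour in the order of levels passed the threshold over all contigs.

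By sequencing lane, the log2 fold change of runoff over reference was 0.96 (edgeR adjusted p = 0.324) among the 4 against 4 libraries of lane 3 and 0.29 (edgeR adjusted p = 0.674) among those of lane 4; the difference between lanes was not tested. The runoff clams with the highest levels, individuals 60 and 50, were both in lane 3. Leaving out each library in turn gave 0.51 to 0.71.

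BIRC7.7.9 had a similar order of sites. In runoff clams it ran from 1.58 over a median of 2.49 to 3.56 CPM, in reference clams from 0.849 over 1.88 to 2.54 CPM, and 6 of 8 runoff clams lay above the reference median. The log2 fold change of runoff over reference was 0.55 (SE 0.221, edgeR adjusted p = 0.37). WWTP clams ran from 1.33 over 1.94 to 3.10 CPM, and their log2 fold change over reference was 0.25 (SE 0.222, edgeR adjusted p = 0.694). The highest BIRC7.7.9 value was that of runoff individual 53, in which BIRC7.3.9 stood at 6.06 CPM, below the 9.70 CPM of individual 60.

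A ratio within a library does not depend on its scaling, so BIRC7.3.9 was also set against BIRC7.7.9 in each clam. The mean log2 ratio differed by -0.05 between WWTP and reference, by 0.04 between runoff and reference and by -0.10 between WWTP and runoff clams. Two-sided exact permutation tests over all 12870 splits gave p = 0.85, 0.881 and 0.724 (n = 8 per site), each 0.881 after Benjamini-Hochberg adjustment over the 3 tests. A site difference in the ratio of these contigs was thus not detected, and leaving out single clams turned its sign in each of the 3 comparisons.

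BIRC7.8.9 differed most between WWTP and runoff clams. WWTP clams ran from 4.13 over a median of 9.51 to 10.4 CPM, against 8.58, 12.1 and 15.2 CPM in runoff clams, and all 8 WWTP clams lay below the runoff median while the ranges still overlapped. Means were 8.66 ± 2.16 CPM in WWTP and 11.9 ± 2.06 CPM in runoff clams (SD, n = 8 each). This is a log2 fold change of -0.45 (SE 0.158, 95% interval -0.78 to -0.13; edgeR adjusted p = 0.164). Reference clams lay between them, from 7.80 over 10.5 to 13.1 CPM. WWTP clams were also all below the reference median, with a log2 fold change of -0.24 (SE 0.157, edgeR adjusted p = 0.54), and runoff clams stood at 0.22 over reference (SE 0.157, edgeR adjusted p = 0.748). The lowest WWTP value belonged to individual 33, which also had the highest sums of muscle markers (13536 CPM) and of vitellogenins (15786 CPM) of the 24 clams; the part of this in its level was not tested.

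The other contigs differed less between sites. BIRC7.6.9 averaged 2.51 ± 0.395 CPM in WWTP, 2.81 ± 0.541 CPM in runoff and 2.30 ± 0.458 CPM in reference clams (SD, n = 8 each). Runoff clams stood at a log2 fold change of 0.29 over reference (SE 0.137, edgeR adjusted p = 0.499). BIRC7.4.9 averaged 5.41 ± 0.808, 6.42 ± 1.30 and 6.21 ± 1.15 CPM at the WWTP, runoff and reference sites, and 1 of 8 WWTP clams lay above the median of either other site. BIRC7.5.9 averaged 1.31 ± 0.373, 1.34 ± 0.511 and 0.998 ± 0.315 CPM, with 7 of 8 WWTP clams and 6 of 8 runoff clams above the reference median, and edgeR adjusted p of 0.491 and 0.608. BIRC7.2.9 was nearly level, at 1.15 ± 0.197, 1.22 ± 0.346 and 1.16 ± 0.191 CPM. BIRC7.1.9 and BIRC7.9.9 had site means of 2.74 to 3.07 and 6.38 to 6.71 CPM within spreads of several-fold between clams, which are described below.

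Counted over the family, 0 of 9 BIRC7 contigs passed an edgeR adjusted p of 0.05 in WWTP against reference, where 1.47% of all contigs passed. At an unadjusted p under 0.05, 0 of 9 were higher or lower in WWTP clams, where 7.77% and 6.77% of all contigs were. In runoff against reference 0 of 9 passed, beside 0.116% of all contigs. At an unadjusted p under 0.05, 3 of 9 (BIRC7.3.9, BIRC7.6.9 and BIRC7.7.9) were higher and 0 lower in runoff clams, where 5.10% and 4.86% of all contigs were. In WWTP against runoff 0 of 9 passed, beside 1.06% of all contigs, and at an unadjusted p under 0.05, 0 of 9 were higher and 2 of 9 (BIRC7.3.9 and BIRC7.8.9) lower in WWTP clams, where 6.87% and 6.59% of all contigs were. A test of any difference among the 3 sites passed 0 of 9, beside 2.03% of all contigs, and 2 of 9 had an unadjusted p under 0.05, beside 16.6%. DESeq2 and limma-voom also called 0 of the 9 in each of these comparisons. With so few contigs called in runoff against reference, a count of 0 of 9 is near the background share.

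Of 9 contigs 6 had a positive log2 fold change in WWTP against reference (51.0% of all contigs), 8 in runoff against reference (52.1%) and 1 in WWTP against runoff (49.0%). With library totals as the scaling these counts were 3, 8 and 0 of 9. In runoff against reference the count was 6 of 9 with limma-voom and in lane 4 alone, and in WWTP against runoff it was 4 of 9 in lane 4 alone. In WWTP against reference it was 4 of 9 in lane 4 alone and with the first component as a term. Median log2 fold changes were 0.12 in WWTP against reference, 0.22 in runoff against reference and -0.16 in WWTP against runoff, beside 0.01, 0.01 and -0.01 for all contigs in the same order. The 3 comparisons share their libraries by pairs, and the contigs vary together within a clam, so these counts are a description.

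**Figure D2:**
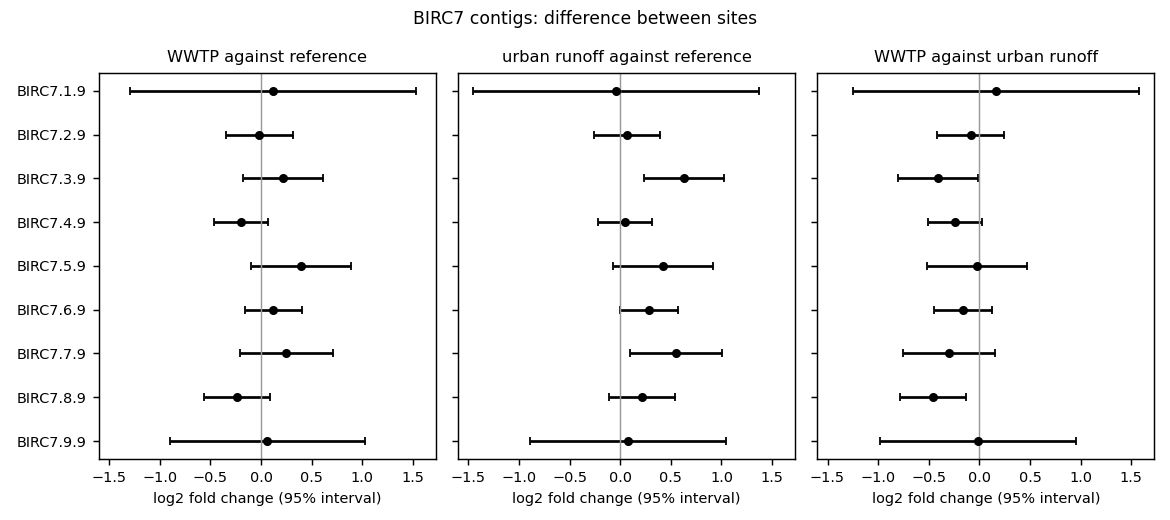
Log2 fold change of each BIRC7 contig, first site over second, with its 95% interval from the edgeR fit over all contigs. In runoff against reference the intervals of BIRC7.3.9 (0.23 to 1.02), BIRC7.6.9 and BIRC7.7.9 lie above 0 before adjustment over contigs, and those of BIRC7.1.9 and BIRC7.9.9 are the widest.

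One adjustment brought BIRC7.3.9 past the threshold. The first principal component of the libraries held 58.8% of the variance, with the clams poor in GUN at its high end. With that component as a term, which was known from an earlier analysis of these data, the test of any difference among the 3 sites called BIRC7.3.9 (edgeR adjusted p = 0.0364) and no other BIRC7 contig. Over all 57593 contigs this test called 4512 with the term and 1172 (2.03%) without it, so calls rose throughout. The same fit gave runoff against reference a log2 fold change of 0.63, as without the term, and an edgeR adjusted p of 0.0536. The other settings tried gave an adjusted p above 0.05 for BIRC7.3.9, the lowest for any difference among the sites being 0.0603 with library totals as the scaling.

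Differences between clams of the same site were far larger than those between sites for BIRC7.1.9 and BIRC7.9.9. BIRC7.1.9 ran from 0.279 CPM in reference individual 21 to 6.04 CPM in WWTP individual 48, a 21.6-fold range. BIRC7.9.9 ran from 1.64 CPM in reference individual 20 to 13.2 CPM in reference individual 23, an 8.08-fold range within the reference site. The other 7 contigs spanned 2.15-fold (BIRC7.4.9) to 4.19-fold (BIRC7.7.9). On the log2 scale the SD over the 24 clams was 1.59 for BIRC7.1.9 and 0.98 for BIRC7.9.9, at percentiles 94.9 and 88.3 of all contigs. The other 7 had SDs of 0.26 (BIRC7.4.9) to 0.50 (BIRC7.5.9), beside a median of 0.41 for all contigs.

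BIRC7.1.9 split the clams into those below 0.891 CPM and those above 2.07 CPM. The 8 clams with little BIRC7.1.9 were 2 WWTP, 3 runoff and 3 reference clams, and they were the same 8 that had the lowest GUN and the highest position on the first principal component. Their GUN levels ran from 2.74 to 144.8 CPM, and those of the other 16 clams from 319.4 to 1077 CPM. BIRC7.9.9 ran from 1.64 to 3.07 CPM in the 8 and from 3.88 to 13.2 CPM in the 16. Sums of other marker lists shifted as well. Summed muscle markers ran from 1270 to 13536 CPM in the 8 and from 295.2 to 3078 CPM in the 16. Summed vitellogenins ran from 4668 to 15786 CPM in the 8 and from 132.9 to 7464 CPM in the 16. Summed haemocyte-type immune effectors (8 contigs of defensins, lectins and TL5B) ran from 13.2 to 60.0 CPM in the 8 and from 99.9 to 594 CPM in the 16. The defensin BDEF.1.2 had by far the highest maximum of these contigs, and the highest sums were mostly that contig. Whether the other contigs on this list differed in the same direction was not tested. The part of these marker lists in the levels of BIRC7.1.9 and BIRC7.9.9 was not tested. The correlation with this component was below -0.9 for 6.86% of all contigs (3949), so BIRC7.1.9 and BIRC7.9.9 share this course with many transcripts.

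**Figure D3:**
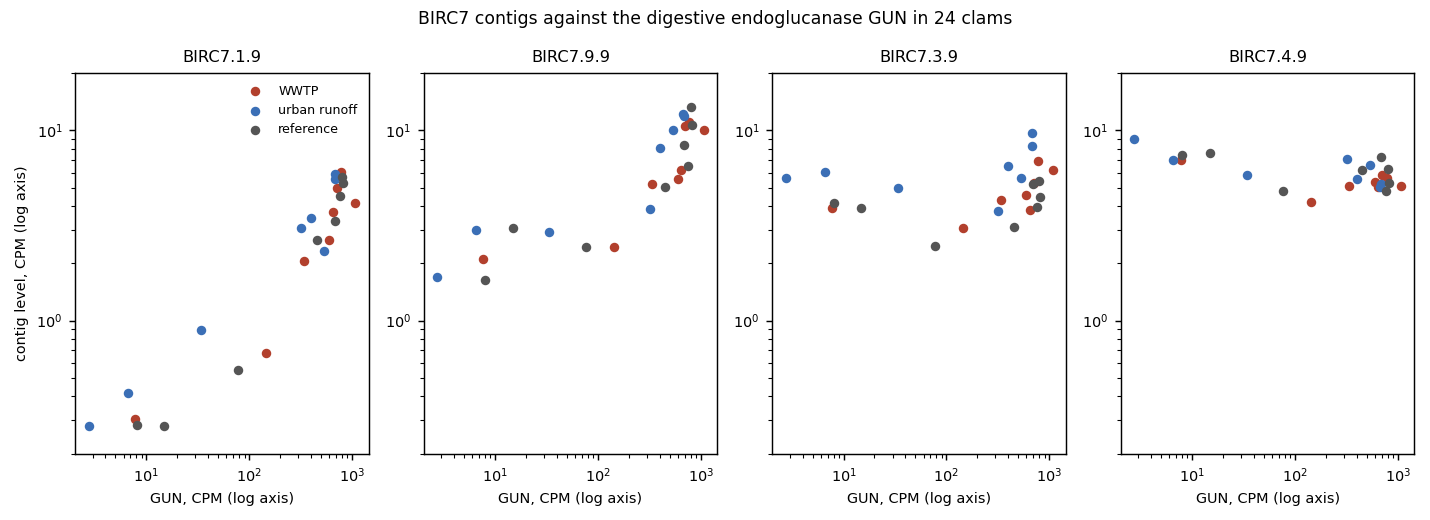
Levels of BIRC7.1.9, BIRC7.9.9, BIRC7.3.9 and BIRC7.4.9 against GUN, a digestive endoglucanase, in each of 24 clams (CPM, log axes; colours are sites). BIRC7.1.9 and BIRC7.9.9 are low in the 8 clams with GUN at or below 144.8 CPM, which come from all 3 sites, while BIRC7.3.9 and BIRC7.4.9 overlap between these and the other clams.

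Because the clams fell into 2 clusters along the component, with the widest gap at 20.5% of its range, relations with it were computed within each cluster. In the 16 clams rich in GUN, BIRC7.1.9 fell along the component with Pearson r = -0.897 and Spearman rho = -0.894 (permutation p = 1e-05 each, the smallest that the permutations can give; adjusted p for r = 0.00062 over 62 relations). BIRC7.9.9 did so with r = -0.784 and rho = -0.818 (permutation, adjusted p for r = 0.00759), and BIRC7.3.9 with r = -0.685 and rho = -0.724 (permutation, adjusted p for r = 0.0319). The relation of BIRC7.3.9 did not pass with library totals as the scaling (permutation, r = -0.526, adjusted p = 0.11). Without the 2 clams farthest from the median, r was -0.862 for BIRC7.1.9, -0.709 for BIRC7.9.9 and -0.593 for BIRC7.3.9. In the 8 clams poor in GUN, BIRC7.4.9 had r = 0.973 with the component (exact permutation, adjusted p = 0.00759; r = 0.875 without 2 clams), while its rho of 0.857 did not pass (exact permutation, adjusted p = 0.083). In those 8 the r was -0.797 for BIRC7.1.9 (exact permutation, adjusted p = 0.0878), -0.366 for BIRC7.9.9 (0.563) and 0.711 for BIRC7.3.9 (0.185), none of which passed. The component was computed from all contigs tested, the 9 among them.

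Between BIRC7 contigs, the clearest relation was that of BIRC7.3.9 and BIRC7.8.9. Over 24 clams r was 0.679 and rho 0.659 (permutation, adjusted p for r = 0.00759), and r was 0.618 without the 2 clams farthest from the median. Within sites r was 0.712 in WWTP, 0.833 in runoff and 0.732 in reference clams, and within lanes it was 0.73 in lane 3 and 0.627 in lane 4. BIRC7.3.9 and BIRC7.9.9 were related over 24 clams with r = 0.573 and rho = 0.59 (permutation, adjusted p for r = 0.0302), a relation that did not pass with library totals as the scaling (r = 0.302, adjusted p = 0.29). The widest gap of BIRC7.9.9 was 12.8% of its range, so this r was not split into clusters. BIRC7.9.9 was lower in all 8 clams poor in GUN than in the other 16, and the part of that contrast in r was not tested. BIRC7.1.9 and BIRC7.9.9 were related in the 16 clams with the higher BIRC7.1.9 (r = 0.722, rho = 0.812; permutation, adjusted p for r = 0.0252). BIRC7.3.9 and BIRC7.7.9, whose site means were in the same order, gave r = 0.398 and rho = 0.386 (permutation, adjusted p for r = 0.185), and within sites r was 0.358 in WWTP, 0.0289 in runoff and 0.184 in reference clams. All contigs of a clam share a library, and reads shared between contigs of the same name could link their values; that was not tested.

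**Figure D4:**
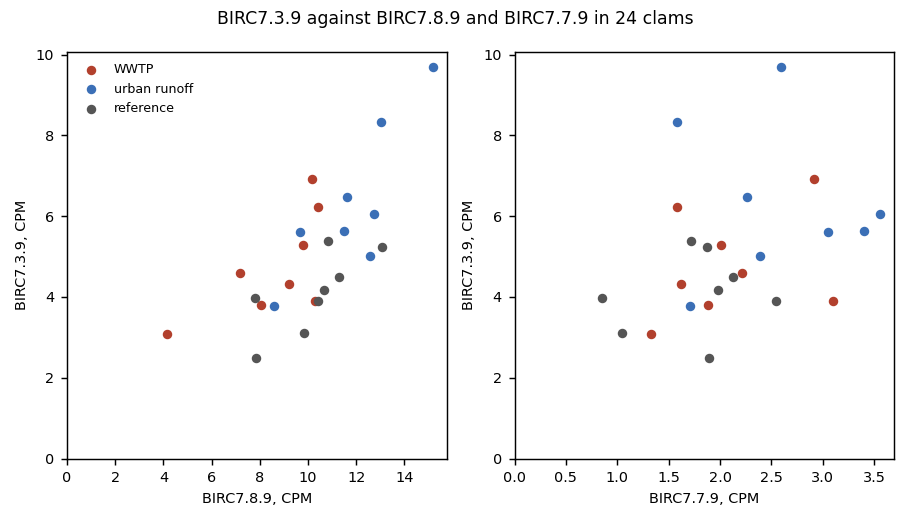
BIRC7.3.9 against BIRC7.8.9 (left) and against BIRC7.7.9 (right) in each of 24 clams (CPM, axes from 0; colours are sites). The points rise together on the left (r = 0.679) and scatter more on the right (r = 0.398; both r are of log2 CPM).

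Among 1265 contigs with a gene symbol and a mean of at least 2 CPM, the 5 whose levels ranked clams most like BIRC7.3.9 over the 24 libraries were LEV9 (rho = 0.784), birc7.1.2 (0.768), RN145 (0.744), Furin (0.735) and hmcn1.1.2 (0.71). LEV9 is named for a worm protein that clusters acetylcholine receptors, RN145 for a ubiquitin ligase of the endoplasmic reticulum, Furin for a protease that cuts proproteins, and hmcn1 for hemicentin, an extracellular matrix protein. For BIRC7.7.9 they were MAL13P1.285 (0.737), PCSK4.3.15 (0.702), TR11B (0.669), RN145 (0.668) and NPHN.2.3 (0.666). PCSK4 is a proprotein convertase related to furin, TR11B is osteoprotegerin, a decoy receptor of the TNF receptor family, and NPHN is nephrin, a cell adhesion protein. RN145 stood in both lists. Including contigs without a symbol, 17 contigs had a rho above 0.8 with BIRC7.3.9 and 4 with BIRC7.7.9.

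Of the 7 contigs with a variant of the name, grouped after the names were seen, 0 passed an edgeR adjusted p of 0.05 in any of the 3 comparisons, and 1, 1 and 2 had an unadjusted p under 0.05 in WWTP against reference, runoff against reference and WWTP against runoff. Of all contigs 1.47%, 0.116% and 1.06% passed in that order. At the unadjusted p, 7.77%, 5.10% and 6.87% of all contigs were higher and 6.77%, 4.86% and 6.59% lower. The most divided between sites was BIR7B.3.4. It ran from 3.28 over a median of 13.0 to 19.9 CPM in WWTP clams, from 1.74 over 2.74 to 26.7 CPM in runoff clams and from 1.80 over 3.17 to 7.03 CPM in reference clams. All 8 WWTP clams lay above the median of either other site, and 6 lay above every reference clam. The log2 fold change of WWTP over reference was 1.82 (SE 0.528, edgeR adjusted p = 0.0813) and over runoff clams 1.15 (SE 0.518, edgeR adjusted p = 0.325).

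Leaving out each of the 24 libraries in turn in edgeR changed these calls for 1 clam only. Runoff individual 49 stood at 26.7 CPM while the other 7 runoff clams were at or below 3.36 CPM. Without it, BIR7B.3.4 passed in WWTP against reference (log2 fold change 1.82, edgeR adjusted p = 0.00625) and in WWTP against runoff (2.27, edgeR adjusted p = 0.00491). This clam is in neither group of WWTP against reference, where it enters only through the fit shared by all libraries. With all 24 clams, DESeq2 called BIR7B.3.4 in WWTP against reference (adjusted p = 0.0138), and limma-voom with sample weights called it in WWTP against reference (adjusted p = 0.0101) and in WWTP against runoff (adjusted p = 0.0123). Of 11 other settings, 3 called BIR7B.3.4 in WWTP against reference, namely both of these tools and an edgeR fit. Within lanes its log2 fold change of WWTP over reference was 1.55 in lane 3 and 2.09 in lane 4. BIR7A was also highest in runoff individual 49, at 17.8 CPM, and averaged 2.67 ± 0.46 CPM in WWTP, 4.85 ± 5.27 CPM in runoff and 3.96 ± 1.61 CPM in reference clams (SD, n = 8 each).

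Of the other variants, birc7.1.2 averaged 16.8 ± 3.12 CPM in WWTP, 18.8 ± 4.62 CPM in runoff and 15.9 ± 2.82 CPM in reference clams. birc7.2.2 ranged from 0.897 to 12.6 CPM and averaged 6.79 ± 4.36, 4.55 ± 3.20 and 3.56 ± 2.16 CPM at those sites. Over the 24 clams, with both clusters pooled, its log2 CPM had r = -0.89 with the first component. BIR7B.4.4 averaged 1.06 ± 0.209, 0.956 ± 0.393 and 1.42 ± 0.29 CPM, with a log2 fold change of -0.57 in runoff against reference (SE 0.215, edgeR adjusted p = 0.325). BIR7B.1.4 and BIR7B.2.4 stayed between 0.254 and 1.49 CPM in the 24 clams.

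The other members of the IAP family were 15 contigs: Birc2 and BIRC2_bis and BIRC3.1.3 to BIRC3.3.3, named for ubiquitin ligases that act in TNF receptor signalling in mammals; XIAP.1.5 to XIAP.5.5, named for the strongest caspase inhibitor of the family; DIAP1.1.2 and DIAP1.2.2, named for the fly IAP; and Iap, iap-3.1.2 and iap-3.2.2. In edgeR 0 of 15 passed in each of the 3 comparisons, as in DESeq2 and limma-voom, and 0, 0 and 2 had an unadjusted edgeR p under 0.05 in WWTP against reference, runoff against reference and WWTP against runoff. At that p, 7.77%, 5.10% and 6.87% of all contigs were higher and 6.77%, 4.86% and 6.59% lower. Median log2 fold changes were -0.09, 0.11 and -0.21 in that order, beside 0.01, 0.01 and -0.01 for all contigs. The contig Iap had the highest counts of them, averaging 118 ± 33.6 CPM in WWTP, 100.4 ± 27.9 CPM in runoff and 87.9 ± 29.0 CPM in reference clams. BIRC3.1.3 averaged 1.18 ± 0.617, 0.877 ± 1.72 and 0.485 ± 0.364 CPM, with its highest value, 5.12 CPM, again in runoff individual 49, and a log2 fold change of 1.28 in WWTP against reference (SE 0.724, edgeR adjusted p = 0.446). DIAP1.2.2 and BIRC2_bis stood at -0.77 and -0.38 in WWTP against runoff (edgeR adjusted p = 0.303 and 0.326).

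These contigs also differed in how far they ranged between clams. XIAP.1.5 spanned 0.369 to 3.78 CPM and XIAP.4.5 0.586 to 5.10 CPM. XIAP.2.5 spanned 3.64 to 11.96 CPM, XIAP.3.5 0.0702 to 0.601 CPM and XIAP.5.5 9.26 to 20.7 CPM. With the first component, r was 0.912, -0.861, 0.691, 0.914 and -0.721 for XIAP.1.5 to XIAP.5.5 in turn. Birc2 and BIRC2_bis spanned 13.5 to 30.7 and 14.0 to 42.6 CPM, DIAP1.1.2 3.70 to 9.47 CPM, BIRC3.2.3 2.70 to 13.8 CPM, and the iap-3 contigs 6.65 to 26.4 and 10.1 to 37.8 CPM. BIRC3.3.3 was at or below 0.392 CPM and at 0 in 1 library.

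**Figure D5:**
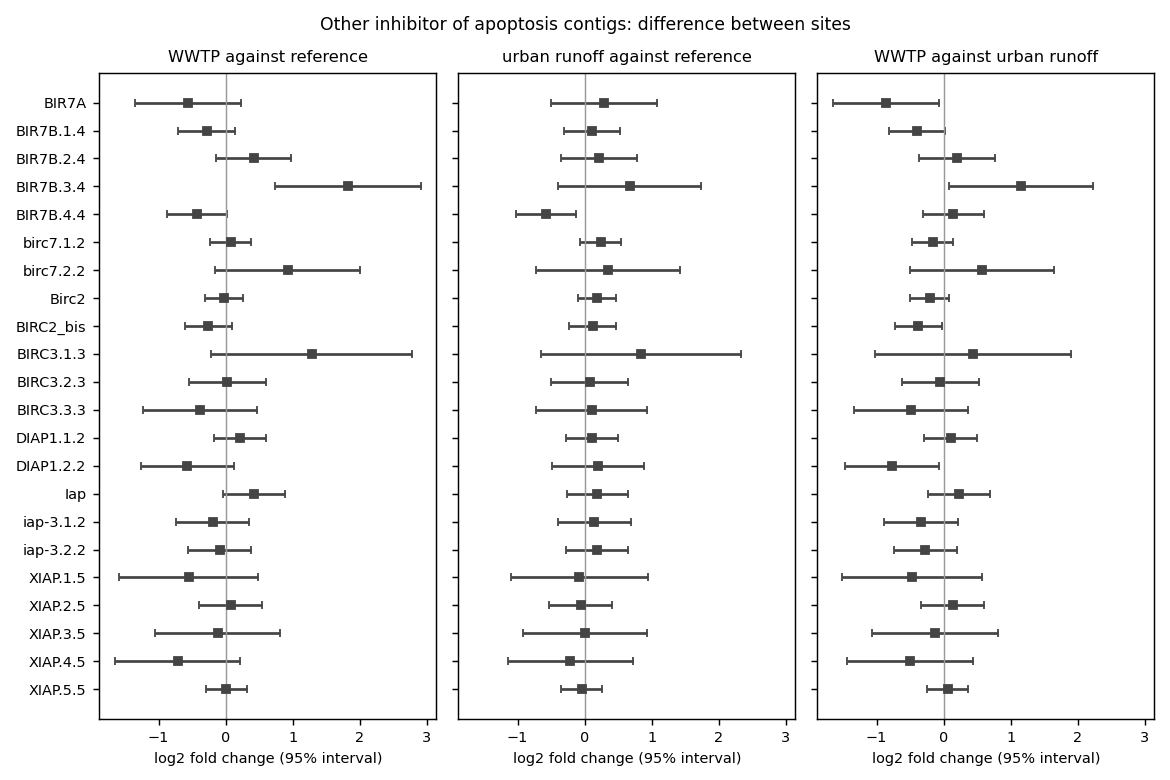
Log2 fold change, first site over second, with its 95% interval from the edgeR fit, of the 7 contigs with a variant of the BIRC7 name (top) and the 15 other IAP contigs. BIR7B.3.4 stands at 1.82 in WWTP against reference and most other intervals span 0.

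Of the proteins that IAPs act on or with, 16 contigs of caspases and other apoptosis genes were measured. In edgeR 0 of 16 passed in each comparison, as in DESeq2 and limma-voom. At an unadjusted edgeR p under 0.05, 7.77%, 5.10% and 6.87% of all contigs were higher and 6.77%, 4.86% and 6.59% lower in WWTP against reference, runoff against reference and WWTP against runoff. Such a p was found for 1, 1 and 0 of the 16 in that order. These were CASP2, an initiator caspase, at a log2 fold change of -0.35 in WWTP against reference (SE 0.15, edgeR adjusted p = 0.259), and BCL3, named for a regulator of NF-kB, at -0.47 in runoff against reference (SE 0.199, edgeR adjusted p = 0.414). CYC.1.2, a cytochrome c, which starts caspase activation when released from mitochondria, averaged 170.2 ± 42.4 CPM in WWTP, 138.1 ± 27.8 CPM in runoff and 149.1 ± 41.4 CPM in reference clams (SD, n = 8 each). CYC.2.2 averaged 64.9 ± 15.5, 54.3 ± 10.6 and 55.8 ± 15.9 CPM. TNR3, a TNF family receptor, was the only partner or antagonist on the list that was tested, and it did not pass in any comparison.

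Of 3 contigs of RING and ubiquitin partners, 1 passed in WWTP against reference, where 1.47% of all contigs did. RNF34, in humans a RING ubiquitin ligase that acts on caspases, fell in WWTP clams to 1.77 to 2.74 CPM (median 2.19), against 2.46 to 4.07 CPM (median 3.02) in reference clams. All 8 WWTP clams lay below the reference median while the ranges overlapped, at a log2 fold change of -0.52 (SE 0.113, edgeR adjusted p = 0.0262). In runoff clams it ran from 1.86 over 2.37 to 2.64 CPM, with a log2 fold change of -0.43 over reference (SE 0.113, edgeR adjusted p = 0.113). This passed in DESeq2 (adjusted p = 0.0179) and in edgeR with the first component as a term (adjusted p = 0.0366). Its call in WWTP against reference was lost with library totals as the scaling (edgeR adjusted p = 0.0613), in a fit of the 2 sites alone (0.0588), in either lane alone (0.719 and 0.34), and without WWTP individual 42 or 46 or reference individual 20 or 31 (0.0512 to 0.0664). UBCD1, a ubiquitin-conjugating enzyme named in the fly, averaged 328.2 ± 83.3 CPM in WWTP, 297.1 ± 43.6 CPM in runoff and 369.3 ± 81.6 CPM in reference clams (SD, n = 8 each), and it did not pass in any comparison.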

How the data were processed

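The series holds RNA-seq libraries of the digestive gland of 24 clams, 8 per site. Per the labels' protocols, RNA came from the Promega SV total RNA system and libraries from the TruSeq v2 kit. The deposited table gives raw read counts per contig, which are whole numbers with totals that differ between libraries, and all of its columns were used. The submitters' processing notes list BWA 0.7.12 and SAMtools 1.1. For the assembly, the counting rule, contig naming and strand, the method is not given in the sources used here. Site was taken from the labels and lane from the column descriptions.

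A filter on low counts (filterByExpr of edgeR, by site, minimum count 10) removed 698 of 58291 contigs, and libraries were scaled with TMM. A single robust quasi-likelihood fit in edgeR 4.0.16 (R 4.3.3) took in the 24 libraries, without covariates. P-values were adjusted by Benjamini-Hochberg over 57593 contigs, with a threshold of 0.05. The fit was tested on simulated data with known changes, drawn for each contig separately around its mean. Those data held no component shared between contigs, so they do not show how the fit behaves with it. Each log2 fold change is the first-named site over the second, with 95% intervals from their standard errors. Limits for 0 counts cover counting error only. Correlations used log2 CPM (prior count 2) and 100000 permutations (all permutations for 8 clams), adjusted over 62 relations, within clusters where the widest gap in a measure exceeded 20% of its range and left at least 6 clams on either side.

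The BIRC7 contigs and the lists of other genes were chosen with earlier results of these data known; the 7 variants of the name were grouped after the names were seen. Named are all BIRC7 and other IAP contigs, pathway contigs past the threshold, those of the 6 others with the highest mean that are reported here (some are not reported here), and the 5 symbols nearest to BIRC7.3.9 and BIRC7.7.9; CASP2, BCL3 and TNR3 were added after their values were seen. Alternatives were other scalings, no filter, lane or the first component as a term, single lanes, 2 sites alone, DESeq2 1.42.0, limma-voom (limma 3.58.1) with weights per sample, and leaving out every library in turn. Libraries correlated with each other at 0.977 or less, so none was a copy. Figures were drawn with matplotlib 3.10.9 in python 3.11.15.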

Additional observations from a re-analysis of the deposited data

Results flagged for a closer look

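None of the 9 BIRC7 contigs had a clam set apart from the other 7 of its site by Dixon's test (27 groups of 8 clams). The test weighs the gap from 1 end clam to the next, so it can miss clams that are low together. BIRC7.1.9 was low in 2 WWTP, 3 runoff and 3 reference clams, as described above. Among 69 further groups (the 7 variants of the name, the 15 other IAP contigs and RNF34), 5 values stood apart, where chance gives about 1 in 20 groups.

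Runoff individual 49 stood apart in 3 contigs: at 26.7 CPM in BIR7B.3.4, at 17.8 CPM in BIR7A and at 5.12 CPM in BIRC3.1.3. In the other 7 runoff clams these contigs reached at most 3.36, 3.79 and 0.555 CPM. In the 9 BIRC7 contigs the same clam had the highest value of the 24 for BIRC7.2.9 (1.68 CPM) and BIRC7.6.9 (3.55 CPM), by a margin too small to set it apart. Its library total was 60.6 M counts, its GUN level 533.9 CPM and its summed muscle markers 852.8 CPM, all within the ranges of the other runoff clams.

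Reference individual 21 stood apart in BIR7B.3.4, at 7.03 CPM, and in BIRC3.1.3, at 1.23 CPM. The other 7 reference clams reached at most 4.08 and 0.623 CPM. BIR7B.3.4 and BIRC3.1.3 were thus high in the same clam at both of these sites.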

How the results depend on the processing

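No BIRC7 contig passed in any of the 3 site comparisons under any alternative run. In the test of any difference among the sites, the first component as a term called 1 (BIRC7.3.9) and the other alternatives 0. Counts of contigs called over the whole table depended strongly on the setting. For WWTP against reference, 846 contigs became 522 with upper-quartile scaling, 165 with library totals, 0 and 1 in lane 3 and lane 4 alone, 516 with the 2 sites alone, 2649 with the first component as a term, 2328 with DESeq2 and 2606 with limma-voom. For runoff against reference, 67 became 25, 0, 0, 0, 11, 956, 825 and 391 under the same settings. For WWTP against runoff, 609 became 0 in either lane alone, 115 with the 2 sites alone, 3027 with the first component, 1968 with DESeq2 and 1633 with limma-voom. For any difference, 1172 became 223 with library totals, 4512 with the first component, 3493 with DESeq2 and 3338 with limma-voom. Leaving out a library gave 206 to 1342, 0 to 198, 112 to 1010 and 383 to 1546 calls in these 4 tests. The edgeR counts of 0 had 3975 to 6708 contigs at an unadjusted p under 0.05 within lanes and 4181 with library totals. With library totals the median over all contigs was -0.16 in WWTP against reference and -0.20 in WWTP against runoff (log2), and split the calls into 38 higher and 127 lower (584 and 262 with TMM) and into 37 higher and 504 lower (443 and 166).

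Some differences turned their sign. With library totals, WWTP against reference became -0.0177 for BIRC7.1.9, -0.0334 for BIRC7.6.9 and -0.0927 for BIRC7.9.9, and WWTP against runoff -0.0111 for BIRC7.1.9. In lane 3 alone BIRC7.2.9 became 0.26 in WWTP against reference, and BIRC7.1.9 0.86 in runoff against reference and -0.25 in WWTP against runoff. In lane 4 alone WWTP against reference became -0.22 for BIRC7.1.9 and -0.47 for BIRC7.9.9, runoff against reference -0.15 for BIRC7.2.9 and -0.95 for BIRC7.9.9, and WWTP against runoff 0.0428 for BIRC7.5.9, 0.0138 for BIRC7.7.9, 0.47 for BIRC7.9.9 and 0.0428 for BIR7A. With the first component as a term, BIRC7.1.9 became -0.24, 0.0761 and -0.31 in the 3 comparisons, BIRC7.9.9 -0.23 in WWTP against reference and BIRC7.5.9 0.0795 in WWTP against runoff. With limma-voom, runoff against reference became -0.0494 for BIRC7.2.9 and -0.22 for BIRC7.9.9, and WWTP against runoff 0.30 for BIRC7.9.9. The causes were not tested.

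Leaving out a library gave these ranges, which span 0. In WWTP against reference they were -0.10 to 0.35 for BIRC7.1.9, -0.0626 to 0.0432 for BIRC7.2.9 and -0.0909 to 0.30 for BIRC7.9.9. In runoff against reference they were -0.30 to 0.185 for BIRC7.1.9, -0.0101 to 0.15 for BIRC7.2.9, -0.0394 to 0.0949 for BIRC7.4.9 and -0.10 to 0.32 for BIRC7.9.9. In WWTP against runoff they were -0.0621 to 0.43 for BIRC7.1.9, -0.11 to 0.14 for BIRC7.5.9 and -0.17 to 0.17 for BIRC7.9.9. The ratio of BIRC7.3.9 to BIRC7.7.9 ranged over -0.17 to 0.0835, -0.11 to 0.18 and -0.20 to 0.0593 in the 3 comparisons. With library totals, r fell below the threshold for BIRC7.3.9 with the component in the 16 clams (-0.53, permutation, adjusted p = 0.11) and with BIRC7.9.9 (0.302, permutation, adjusted p = 0.29). There 11 relations passed in place of 7, with 5 in common.

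Pairing clams across sites was not done, since replicate numbers follow accession order and mark no shared animal. With 8 clams per site, 4 in a lane, 95% intervals of the BIRC7 contigs were wide relative to their site differences.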

Other observations

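In WWTP clams, BIR7B.3.4 and BIRC3.1.3 were high together without a clam set apart. The highest values were those of individuals 33 and 47, at 19.9 and 18.9 CPM for BIR7B.3.4 and at 1.91 and 2.03 CPM for BIRC3.1.3. The lowest values of both contigs were those of individual 42, at 3.28 and 0.291 CPM, followed by individual 48, at 6.31 and 0.526 CPM. These contigs were picked after their values were seen, and their relation was not tested.

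The 4 contigs named BIR7B did not share an order of sites. Against reference, WWTP clams stood at log2 fold changes of -0.28 for BIR7B.1.4, 0.42 for BIR7B.2.4, 1.82 for BIR7B.3.4 and -0.43 for BIR7B.4.4, with edgeR standard errors of 0.203, 0.273, 0.528 and 0.216.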
